A study of Homo sapiens with 18 samples.

Results

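The Notch genes described here are the receptors NOTCH1, NOTCH2, NOTCH3 and NOTCH4, the ligands JAG1, JAG2 and DLL1, and the HES/HEY target genes HES1, HEY1 and HEY2. They were chosen by symbol from the deposited expression table, which holds 19849 genes, and all 10 were found there, each read by 1 probe set. The study compared lung cancer cells before and after an epithelial-mesenchymal transition (EMT), the change in which epithelial cells lose cell-cell junctions and take on a mesenchymal state. The cells were 3 human lung adenocarcinoma lines, A549, HCC827 and NCI-H358. Untreated parental cells of each line were compared with mesenchymal derivatives of the same line. The derivatives had been grown with 2 ng/ml of the cytokine TGFβ for 3 weeks and then kept in medium free of TGFβ from the day before lysis, and all 6 groups shared the same growth medium. The study's methods give a treatment time that varies by line. Each of the 6 groups has 3 arrays, 18 in all, which the study describes as biological samples made in parallel, so the p-values measure the spread between these samples and no other.

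Notch signalling passes between touching cells. A ligand of the Jagged or Delta-like family on one cell binds a NOTCH receptor on its neighbour, the receptor is cut first by an ADAM protease and then by the γ-secretase complex, and the freed intracellular domain joins the DNA-binding protein RBPJ and a Mastermind-like (MAML) coactivator in the nucleus. Genes of the HES and HEY families, which encode transcriptional repressors, are the best known targets of that complex. The arrays measure RNA only, so receptor cleavage and protein levels were not read.

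RNA was read on Affymetrix U133 Plus 2.0 arrays, and levels are given as log2 expression values normalized by RMA, a method that subtracts background, gives every array the same distribution of values and combines the probes of a probe set into 1 value. The array medians lay between 6.31 and 6.47. Within a group, the log2 differences between arrays had standard deviations of 0.163 to 0.282 over all genes. As a guide to dim signals, 95% of 99 olfactory receptor genes, a family that is normally silent outside the nose, had their mean below 6.09. That level is rough, since probe sets differ in brightness, and 45.2% of all genes lay below it. Of the epithelial markers examined, 5 of 8 fell in A549 and 8 of 8 in both HCC827 and NCI-H358, and CDH1, which encodes E-cadherin, fell by 5.81, 2.95 and 3.94 in the respective lines. Mesenchymal markers rose for 6 of 7 genes in A549, where ZEB2 fell, and for 7 of 7 in the other lines, among them VIM, which encodes vimentin, by 0.79, 2.03 and 2.31. The VIM mean was above the olfactory receptor level of 6.09 only in mesenchymal A549 (6.37), so its rises are set against levels not shown to be above background. The transition was not alike in the 3 lines, since ZEB1, a repressor of epithelial genes, already stood at 9.33 in parental A549 and rose there by 0.79, against 4.18 in HCC827 and 3.66 in NCI-H358. One parental array of each line carries a title number apart from the unbroken run of the other 15, and a call that was lost without these 3 arrays is given with its adjusted p beside the result. In cells measured in bulk, fewer expressing cells and less RNA per cell cannot be told apart. Endothelial cells also express Notch genes, and 1, 3 and 3 of 7 endothelial markers rose in A549, HCC827 and NCI-H358. The highest mesenchymal mean of any of them was 6.59, for TIE1 in NCI-H358, whereas VWF, CDH5 and ERG did not pass in any line, and haematopoietic markers stayed between 2.83 and 5.76 in all groups. The part of such markers in the Notch results was not tested.

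Mesenchymal and parental arrays of each line were compared by limma, all 18 arrays being fitted together, with Benjamini-Hochberg adjustment of the p-values over all genes. The study's methods also name limma for these arrays. A gene is said to have changed, risen or fallen where its adjusted p was below 0.05. In A549, 8 of the 10 Notch genes changed, 5 up and 3 down, where 43.4% of all genes changed, 16.6% up and 26.8% down. In HCC827, 7 changed, 3 up and 4 down, where 45.8% of all genes changed, 20.8% up and 25% down. In NCI-H358, 7 changed, 4 up and 3 down, where 41.4% of all genes changed, 21.5% up and 19.8% down. Of the 30 comparisons of a Notch gene within a line, 22 passed. The median size of change over the 10 genes, regardless of sign, was 0.58, 0.59 and 0.36 in A549, HCC827 and NCI-H358, beside 0.21, 0.22 and 0.19 over all genes. JAG1 and HEY1 rose in all 3 lines, as 4.31% of all genes did, and NOTCH3 and JAG2 fell in all 3, as 6.14% did. NOTCH1, NOTCH2 and HES1 rose in at least 1 line and fell in at least 1 other, as did 15.7% of all genes. At the study's thresholds, an adjusted p below 1e-05 and a change above 5-fold, HEY1 passed in A549, where 1.9% of all genes passed, JAG1 passed in HCC827, where 2.95% passed, and no Notch gene passed in NCI-H358, where 2.17% passed, so 2 passed in at least 1 line, as 5.4% of all genes did, and none in all 3, as 0.242% did. The arrays of the 2 states did not overlap for 7, 6 and 8 of the 10 genes in A549, HCC827 and NCI-H358, beside 52.4%, 51.2% and 51.6% of all genes. The change itself differed between HCC827 and A549 for 5 Notch genes (42.2% of all genes), between NCI-H358 and A549 for 5 (42.8%) and between NCI-H358 and HCC827 for 7 (37.9%).

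**Figure D1:**
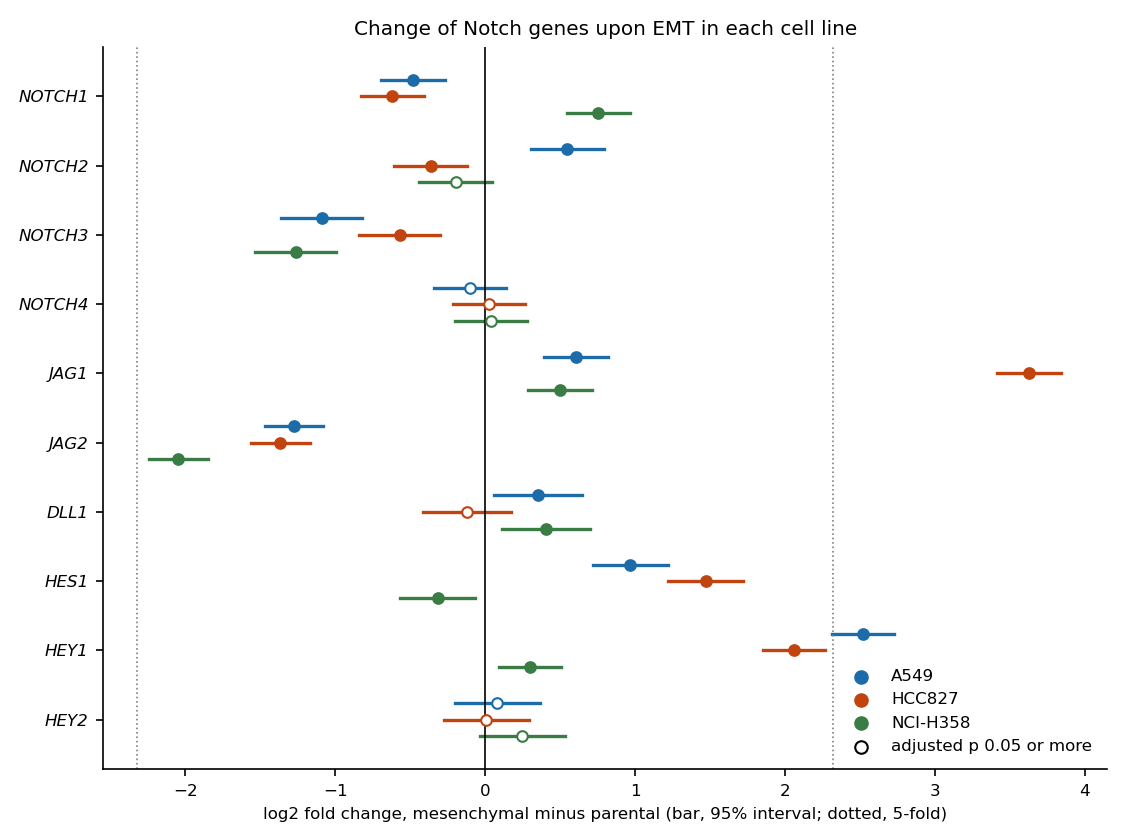
Log2 fold change of the 10 Notch genes, mesenchymal minus parental, in each cell line, with the 95% confidence interval of the limma fit as a bar. Filled points passed an adjusted p of 0.05, open points did not, and the dotted lines mark a 5-fold change, which JAG1 in HCC827 and HEY1 in A549 exceed.

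Among the ligands, JAG1 rose and JAG2 fell in every line. JAG1 (Entrez gene 182) encodes Jagged 1, a membrane-bound ligand. In parental HCC827 cells the JAG1 arrays read 5.77, 5.70 and 5.36, and in mesenchymal HCC827 cells 9.25, 9.17 and 9.31. The groups were far apart, and the change of 3.63 (SE 0.102, adjusted p 1.86e-14) corresponds to 12.4-fold between the measured means. The parental mean of 5.61 lies under the olfactory receptor level of 6.09, so this fold is set against a level not shown to be above background. In A549, JAG1 read 8.41, 8.43 and 8.63 in parental and 9.05, 9.13 and 9.10 in mesenchymal cells, a rise of 0.61 (adjusted p 0.000106). In NCI-H358 it read 8.94, 9.17 and 9.20 in parental and 9.70, 9.62 and 9.51 in mesenchymal cells, a rise of 0.50 (adjusted p 0.000624). Parental HCC827 was thus the 1 group with a low JAG1 level, and the arrays did not overlap between states in any line. The rise in HCC827 exceeded that in A549 by 3.02 (adjusted p 3.66e-11) and that in NCI-H358 by 3.13 (adjusted p 4.52e-11), whereas the change in NCI-H358 minus that in A549 was -0.10 with a 95% interval of -0.41 to 0.20. The means of the 3 parental lines spanned 3.49 for JAG1 and those of the mesenchymal lines 0.51. In the order of the 6 group means, mesenchymal NCI-H358 was highest at 9.61 ± 0.09 (SD, n = 3). Mesenchymal HCC827 (9.24 ± 0.07), parental NCI-H358 (9.11 ± 0.14) and mesenchymal A549 (9.10 ± 0.04) followed and did not differ from their neighbours among these 3, and parental A549 (8.49 ± 0.12) and parental HCC827 (5.61 ± 0.22) came last, each lower than the one before it.

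JAG2 (Entrez gene 3714), which encodes the second Jagged ligand, went the other way. A549 read 8.92, 8.77 and 8.62 in the parental state and 7.49, 7.51 and 7.48 in the mesenchymal state. HCC827 read 8.47, 8.65 and 8.59 before and 7.20, 7.13 and 7.28 after the transition, and NCI-H358 9.52, 9.46 and 9.24 before and 7.29, 7.27 and 7.52 after it. All 9 parental arrays lay above all 9 mesenchymal arrays. JAG2 fell by 1.28 in A549 (SE 0.0925, adjusted p 5.39e-09), by 1.37 in HCC827 (adjusted p 1.52e-09) and by 2.05 in NCI-H358 (adjusted p 1.00e-11), which is 2.42-fold, 2.58-fold and 4.13-fold. The fall in NCI-H358 exceeded that in A549 by 0.77 (adjusted p 0.000128) and that in HCC827 by 0.68 (adjusted p 0.000484). The 3 mesenchymal means, 7.49, 7.20 and 7.36, lay within 0.29 of each other. No neighbours in their order differed, but the highest, A549, and the lowest, HCC827, did (adjusted p 0.0131). Because JAG1 and JAG2 are read by different probe sets, their levels cannot be set against each other, but the JAG1 value minus the JAG2 value on the same array can be followed between states. It shifted towards JAG1 by 1.88 (A549), 5.0 (HCC827) and 2.55 (NCI-H358). Since JAG1 rose and JAG2 fell without overlap of arrays in every line, the arrays of this difference could not overlap either. The exact two-sided permutation test therefore had to give p = 0.1 in each line, the smallest value that 3 arrays against 3 can give. It adds no support beyond the changes of the 2 genes.

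The promoter sequences of the Jagged ligands are shown because these genes moved in opposite directions in every line. RefSeq windows on GRCh38.p14, from 250 bases before to 50 after the gene start, were found for 8 of the 10 genes, and HEY1 and DLL1 had no entry. Each window was searched on both strands for TGGGAA, the core of the RBPJ site, for the longer RBPJ site GTGGGAA, which contains that core, for the N-box CACNAG bound by HES repressors, and for CACCTG, an E-box bound by ZEB1 and ZEB2. The stretches below run from 150 bases before the start up to the start, 5′ to 3′ on the strand of the gene. JAG1 occupies chr20:10674000-10674149 and JAG2 chr14:105168777-105168926, both on the minus strand, and the capitals mark CACCTG as read on the opposite strand.
JAG1: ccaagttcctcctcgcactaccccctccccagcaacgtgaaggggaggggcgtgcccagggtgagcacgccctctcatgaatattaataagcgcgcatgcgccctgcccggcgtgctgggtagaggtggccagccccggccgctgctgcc
JAG2: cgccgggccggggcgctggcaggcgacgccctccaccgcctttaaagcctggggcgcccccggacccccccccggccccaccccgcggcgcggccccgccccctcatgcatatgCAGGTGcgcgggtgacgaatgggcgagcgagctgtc
JAG2 holds 1 match to CACCTG, 36 to 31 bases before the start, and JAG1 holds a match to none of these motifs in its 300-base window. Of the 35116 promoter windows in the table, 20.6% hold CACCTG, and among the 8 Notch genes NOTCH4 also does. A match is a string of letters and was not tested as a binding site.

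DLL1 (Entrez gene 28514), a Delta-like ligand, was read at a low level throughout. All its arrays lay between 3.32 and 4.42, under the olfactory receptor level. DLL1 read 3.85, 3.32 and 3.66 in parental and 4.17, 3.92 and 3.81 in mesenchymal A549, where the arrays overlapped. The rise of 0.35 had an adjusted p of 0.0489, and it was no longer below 0.05 in 11 of the 18 fits that left out 1 array. Without parental array 2 of A549 the change was 0.21 (adjusted p 0.254), without mesenchymal array 1 it was 0.25 (adjusted p 0.211), and without parental array 3 or mesenchymal array 2 it was 0.38 (adjusted p 0.0724 and 0.0721). In NCI-H358, DLL1 read 3.73, 4.01 and 3.77 in parental and 4.22, 4.09 and 4.42 in mesenchymal cells, a rise of 0.41 (adjusted p 0.0259). That call was lost without parental array 1 (0.35, adjusted p 0.0929), parental array 3 (0.37, adjusted p 0.0819), mesenchymal array 1 (0.42, adjusted p 0.0515) or mesenchymal array 3 (0.32, adjusted p 0.122), and also without the 3 arrays numbered apart (adjusted p 0.0588). In HCC827 the change of DLL1 was -0.12 (adjusted p 0.533), and none of its neighbouring group means differed, although the highest, mesenchymal NCI-H358, and the lowest, parental A549, did (adjusted p 0.000748).

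Among the receptors, NOTCH3 (Entrez gene 4854) was the 1 that moved in the same direction in every line. It read 6.85, 6.39 and 6.41 in parental and 5.59, 5.40 and 5.40 in mesenchymal A549. In HCC827 it read 6.79, 6.29 and 6.48 in parental and 6.03, 5.81 and 6.02 in mesenchymal cells. In NCI-H358 it read 6.79, 6.73 and 6.65 in parental and 5.56, 5.42 and 5.40 in mesenchymal cells. No line had overlapping arrays, and parental array 1 of A549 and of HCC827, both numbered apart, stood above the other parental arrays of its line. NOTCH3 fell by 1.09 in A549 (SE 0.128, adjusted p 2.15e-06), by 0.57 in HCC827 (adjusted p 0.00129, but 0.0665 with the methods' t-test) and by 1.26 in NCI-H358 (adjusted p 3.16e-07). The fall in NCI-H358 exceeded that in HCC827 by 0.70 (adjusted p 0.00532). The fall in A549 exceeded that in HCC827 by 0.52 (adjusted p 0.0282), a difference whose call was lost in 7 of the 18 fits that omitted a single array, among them those without parental array 1 of A549 (0.37, adjusted p 0.0806) and without parental array 2 of HCC827 (0.40, adjusted p 0.0823). In 5 further fits, without mesenchymal array 2 or 3 of A549, mesenchymal array 1 or 3 of HCC827 or parental array 3 of HCC827, it was 0.48 to 0.50. The 3 parental groups held the highest means, 6.73, 6.55 and 6.52, and did not differ from their neighbours. Mesenchymal HCC827 (5.95) stood between them and mesenchymal A549 and NCI-H358 (both 5.46). The 3 mesenchymal means are under the olfactory receptor level of 6.09, and the 3 parental means are above it.

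NOTCH1 (Entrez gene 4851) fell in A549 and HCC827 and rose in NCI-H358. It read 7.93, 7.87 and 8.05 in parental and 7.47, 7.53 and 7.42 in mesenchymal A549. In HCC827 it read 7.94, 7.67 and 7.61 in parental and 7.11, 7.13 and 7.13 in mesenchymal cells. In NCI-H358 it read 6.52, 6.93 and 6.80 in parental and 7.46, 7.46 and 7.61 in mesenchymal cells. The arrays did not overlap in any line, and parental NCI-H358 was the lowest of the 6 groups. NOTCH1 fell by 0.48 in A549 (SE 0.0999, adjusted p 0.000793) and by 0.62 in HCC827 (adjusted p 5.66e-05), and rose by 0.76 in NCI-H358 (adjusted p 7.73e-06). The change in NCI-H358 differed from that in A549 by 1.24 (adjusted p 1.92e-06) and from that in HCC827 by 1.37 (adjusted p 7.07e-07), whereas the change in HCC827 minus that in A549 was -0.14, with a 95% interval of -0.44 to 0.16. From top to bottom the means were 7.95 and 7.74 in parental A549 and HCC827, 7.51, 7.47 and 7.12 in mesenchymal NCI-H358, A549 and HCC827, and 6.75 in parental NCI-H358. Only the last 3 of these, mesenchymal A549, mesenchymal HCC827 and parental NCI-H358, differed from their neighbours in turn. The span of the 3 line means went from 1.20 in parental to 0.39 in mesenchymal cells.

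NOTCH2 (Entrez gene 4853) differed more between lines than between states, with a span of 2.14 between the 3 parental means. It read 7.79, 7.37 and 7.33 in parental and 7.01, 7.07 and 7.33 in mesenchymal HCC827, the highest of the lines in both states. In A549 it read 5.40, 5.23 and 5.44 in parental and 5.81, 6.02 and 5.87 in mesenchymal cells. In NCI-H358 it read 5.91, 5.83 and 5.94 in parental and 5.71, 5.59 and 5.80 in mesenchymal cells. The states did not overlap in A549 and NCI-H358 but did in HCC827. All 4 group means of A549 and NCI-H358, from 5.35 to 5.90, lie under the olfactory receptor level of 6.09. NOTCH2 rose by 0.55 in A549 (SE 0.115, adjusted p 0.000858) and fell by 0.36 in HCC827 (adjusted p 0.0156), and its change of -0.19 in NCI-H358 did not pass (adjusted p 0.206). The change in A549 exceeded that in HCC827 by 0.91 (adjusted p 0.000207) and that in NCI-H358 by 0.74 (adjusted p 0.00128). The fall in HCC827 rested on single arrays and also did not pass without the 3 arrays numbered apart (adjusted p 0.129) or in a fit of that line alone (adjusted p 0.0843). It was -0.21 (adjusted p 0.102) without parental array 1, which is numbered apart, -0.30 (adjusted p 0.0742) without mesenchymal array 1 and -0.33 (adjusted p 0.0566) without mesenchymal array 2. NOTCH2NL, a gene with near-identical copies of NOTCH2 sequence, changed by 0.11, -0.43 and 0.07 in A549, HCC827 and NCI-H358, of which the value in HCC827 passed (adjusted p 0.000694), and shared signal between their probe sets was not separated.

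NOTCH4 (Entrez gene 4855), a receptor best known from endothelial cells, did not pass in any line. Its changes were -0.10, 0.03 and 0.04 in A549, HCC827 and NCI-H358 (adjusted p 0.512, 0.884 and 0.838), with 95% intervals that reached from -0.34 to 0.28. Its group means lay between 5.32 and 5.55, under the olfactory receptor level, and no neighbours differed.

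**Figure D2:**
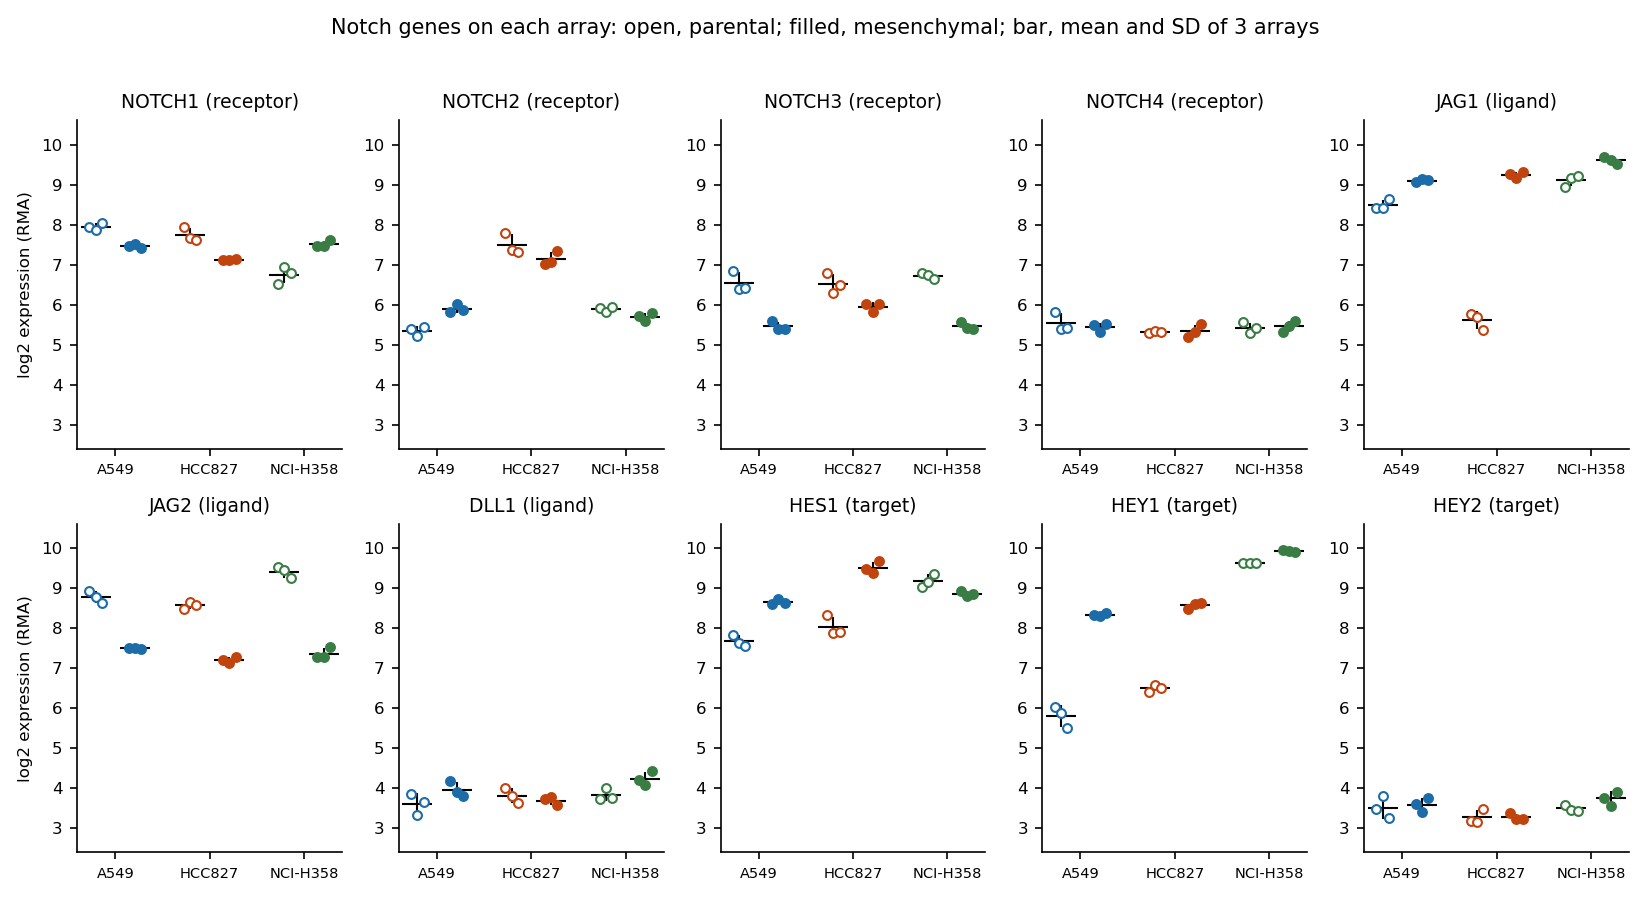
Log2 expression (RMA) of each Notch gene on each of the 18 arrays, with open points for parental and filled points for mesenchymal cells and a bar at the mean with its SD for the 3 arrays of a group. JAG1 is low only in parental HCC827 (5.61), JAG2 is lower in all mesenchymal groups, and HEY1 is high in both states of NCI-H358 (9.62 and 9.92).

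Among the target genes, HEY1 rose in every line and HES1 in all but NCI-H358. HEY1 (Entrez gene 23462) encodes a repressor of the hairy/enhancer-of-split family with a YRPW motif. In A549 it read 6.04, 5.88 and 5.51 in parental and 8.32, 8.30 and 8.39 in mesenchymal cells. In HCC827 it read 6.41, 6.59 and 6.52 in parental and 8.48, 8.60 and 8.62 in mesenchymal cells. The lowest mesenchymal array stood above the highest parental array by 2.26 in A549 and 1.89 in HCC827. In NCI-H358 the arrays read 9.61, 9.62 and 9.63 in parental and 9.95, 9.92 and 9.90 in mesenchymal cells, so HEY1 was higher in parental NCI-H358 than in any group of the other lines. HEY1 rose by 2.52 in A549 (SE 0.0980, adjusted p 1.42e-12), which is 5.75-fold between the measured means, and by 2.06 in HCC827 (adjusted p 1.59e-11), which is 4.17-fold. The 3 parental A549 arrays lie under the olfactory receptor level of 6.09, so the fold in that line is set against a level not shown to be above background. The rise of 0.30 in NCI-H358 (adjusted p 0.0200), which is 1.23-fold, did not pass without mesenchymal array 1 (0.29, adjusted p 0.0592). It was smaller than that in A549 by 2.22 (adjusted p 1.04e-09) and smaller than that in HCC827 by 1.76 (adjusted p 2.92e-08), and the rise in HCC827 was smaller than that in A549 by 0.47 (adjusted p 0.0118). All neighbouring group means of HEY1 differed except those of mesenchymal HCC827 (8.57) and mesenchymal A549 (8.33).

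HES1 (Entrez gene 3280), a repressor that also binds its own promoter, rose in A549 and HCC827. It read 7.84, 7.64 and 7.56 in parental and 8.60, 8.72 and 8.62 in mesenchymal A549. In HCC827 it read 8.33, 7.89 and 7.91 in parental and 9.47, 9.39 and 9.67 in mesenchymal cells. In NCI-H358 it read 9.02, 9.16 and 9.35 in parental and 8.94, 8.80 and 8.85 in mesenchymal cells. The states did not overlap in any line, but in NCI-H358 the parental arrays were the higher ones. HES1 rose by 0.97 in A549 (SE 0.118, adjusted p 3.20e-06) and by 1.47 in HCC827 (adjusted p 1.35e-08), which is 1.96-fold and 2.77-fold. In NCI-H358 it fell by 0.32 (adjusted p 0.0405), a call that was lost without parental array 2 (-0.33, adjusted p 0.0725), parental array 3 (-0.23, adjusted p 0.188), mesenchymal array 1 (-0.35, adjusted p 0.0515), mesenchymal array 2 (-0.28, adjusted p 0.118) or mesenchymal array 3 (-0.31, adjusted p 0.0884), and with arrays centred on their medians (-0.28, adjusted p 0.0524). The change in NCI-H358 lay below that in A549 by 1.29 (adjusted p 7.80e-06) and below that in HCC827 by 1.79 (adjusted p 2.23e-07). The rise in HCC827 exceeded that in A549 by 0.50 (adjusted p 0.0222). That difference did not pass without parental array 1 of A549 or without parental array 2, parental array 3 or mesenchymal array 3 of HCC827, where it was 0.42 to 0.44 (adjusted p 0.0590 to 0.0630). From top to bottom the HES1 means were 9.51 in mesenchymal HCC827, 9.18 in parental and 8.86 in mesenchymal NCI-H358, 8.65 in mesenchymal A549, 8.04 in parental HCC827 and 7.68 in parental A549, and only mesenchymal NCI-H358 and mesenchymal A549 were neighbours that did not differ.

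HEY2 (Entrez gene 23493), the third target gene, did not pass in any line. All its arrays lay between 3.15 and 3.92. Its changes were 0.08, 0.01 and 0.25 in A549, HCC827 and NCI-H358 (adjusted p 0.675, 0.970 and 0.164). No neighbouring group means differed, although the highest, mesenchymal NCI-H358, and the lowest, parental HCC827, did (adjusted p 0.00565). The widest 95% interval bound among the 3 lines was 0.53, in NCI-H358, and the level is among the lowest 8.83% of the genes in the table.

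The promoter stretches of HES1 and HEY2 are shown because they alone among the 8 windows searched hold the RBPJ core, although only HES1 was read well above the olfactory receptor level. HES1 lies on the plus strand, and its stretch chr3:194136038-194136147 holds the 110 bases before the gene start. HEY2 also lies on the plus strand, and its stretches are chr6:125749402-125749451, upstream, and chr6:125749588-125749637, which crosses the start. The capitals mark TGGGAA or, in the upstream stretch of HEY2, its reverse complement.
HES1: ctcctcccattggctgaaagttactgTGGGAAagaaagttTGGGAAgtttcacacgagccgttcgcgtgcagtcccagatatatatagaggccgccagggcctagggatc
HEY2 upstream: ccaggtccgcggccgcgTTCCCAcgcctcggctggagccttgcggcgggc
HEY2 across the start: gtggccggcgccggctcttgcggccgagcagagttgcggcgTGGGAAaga
HES1 holds the core at 84 and at 70 bases before the start, both in the direction of the gene, and HEY2 holds it at 213 bases before the start on the reverse strand and at 3 bases before the start in the forward direction. The core occurs in 24% of all promoter windows and at 2 or more places in 3.8%. The longer site GTGGGAA occurs 1 time in HES1 and 2 times in HEY2, and in 6.25% of all windows. HES1 also holds 4 matches to the N-box CACNAG, more than the 2 overlapping matches of NOTCH1 and the single matches of NOTCH2, NOTCH3 and NOTCH4, and 38% of all windows hold at least 1.

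**Figure D3:**
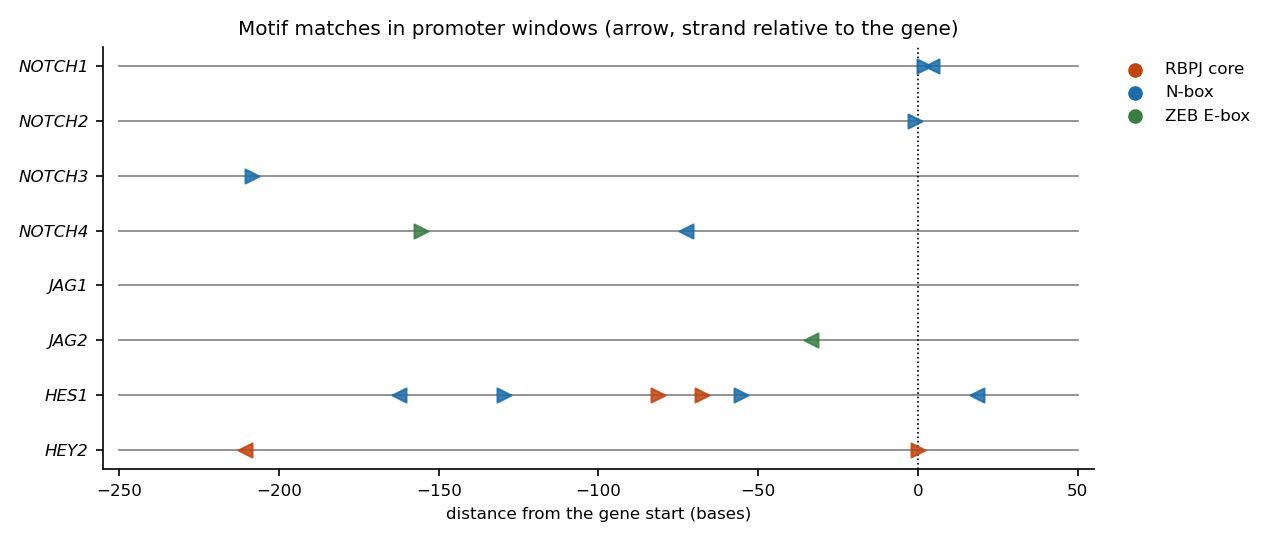
Positions of motif matches in the RefSeq promoter windows of 8 Notch genes, in bases from the gene start (dotted line), coloured by motif and pointing in the direction of the strand relative to the gene. The RBPJ core is found in HES1, at 84 and 70 bases before the start, and in HEY2, at 213 and 3 bases before it.

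The other genes of the pathway, a list of 52 ligands, modifying enzymes, proteases, nuclear cofactors and further targets of which 51 were measured, moved in both directions. In A549, 14 rose and 12 fell (27.5% and 23.5%), in HCC827 18 rose and 12 fell (35.3% and 23.5%), and in NCI-H358 17 rose and 9 fell (33.3% and 17.6%), beside the shares of all genes given above. The median change over the list was -0.02, 0.05 and 0.07 in the respective lines, beside -0.02, 0.01 and 0.02 over all genes. Among other ligands, DNER passed the study's thresholds. DNER encodes a transmembrane protein with EGF-like repeats that has been described as a non-canonical Notch ligand. Its arrays lay between 4.64 and 4.96 in parental and between 12.51 and 12.74 in mesenchymal A549, a rise of 7.80 (SE 0.180, adjusted p 1.70e-15). In HCC827 it went from 5.91 ± 0.54 to 6.58 ± 0.06 (SD, n = 3; limma change 0.67, adjusted p 0.00540), and in NCI-H358 it fell by 0.81, from 8.18 ± 0.12 to 7.37 ± 0.08 (adjusted p 0.00141). The HCC827 change was 0.35 without parental array 1, which is numbered apart and read 5.29 where the others read 6.21 and 6.24, and it did not pass in a fit of that line alone (adjusted p 0.0549) or with the methods' t-test (adjusted p 0.198). The gain of DNER in A549 was larger than in HCC827 by 7.13 and the difference from NCI-H358 was 8.61 (adjusted p 1.14e-12 and 1.22e-13). The parental DNER means of A549 (4.84) and HCC827 (5.91) lie under the olfactory receptor level of 6.09. The changes in these lines are thus set against levels not shown to be above background.

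NEURL1B, an E3 ubiquitin ligase of the neuralized family that acts in ligand endocytosis, was the other gene of the list past the study's thresholds. It went from 8.48 ± 0.10 to 11.17 ± 0.13 in HCC827 (SD, n = 3), a rise of 2.69 (SE 0.0878, adjusted p 1.41e-13). In NCI-H358 it rose by 1.68, from 7.57 ± 0.18 to 9.25 ± 0.04 (adjusted p 6.53e-11), and in A549 its change of 0.19 did not pass (adjusted p 0.0995), except with arrays centred on their medians (0.25, adjusted p 0.0233). The change in HCC827 exceeded that in A549 by 2.499 (adjusted p 6.40e-11) and that in NCI-H358 by 1.0 (adjusted p 5.77e-06), so NEURL1B and JAG1 both had their largest rise of the 3 lines in HCC827.

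Of the 51 genes measured, 5 rose in all 3 lines, as 4.31% of all genes did, and 2 fell in all 3, as 6.14% did. FBXW7, which marks the Notch intracellular domain for degradation, rose by 0.68, 0.38 and 0.57 in A549, HCC827 and NCI-H358. POGLUT1, which adds O-glucose to the EGF repeats of NOTCH receptors, rose by 0.29, 0.76 and 0.73, DTX3, of the Deltex family of E3 ligases, by 0.39, 0.29 and 0.91, and the coactivator MAML1 by 0.16, 0.27 and 0.29. The smallest of these, MAML1 in A549 (adjusted p 0.0260), lost its call without the 3 arrays numbered apart (adjusted p 0.0893), and without parental array 1 (0.13, adjusted p 0.115), mesenchymal array 1 (0.15, adjusted p 0.0764) or mesenchymal array 2 (0.15, adjusted p 0.0781) of that line. With the methods' t-test, DTX3 in HCC827 did not pass (adjusted p 0.0774). DTX2 and DTX3L, other members of the Deltex family, fell in all 3 lines, DTX2 by 0.65, 1.16 and 0.63 and DTX3L by 0.41, 1.18 and 1.15. Counts by role are set beside the shares of all genes, which were 16.6% up and 26.8% down for A549, 20.8% up and 25% down for HCC827, then 21.5% up and 19.8% down for NCI-H358, with the lines in that order below. Of 5 other ligands, 2, 2 and 0 rose and 2, 0 and 1 fell. Of 6 glycosyltransferases, which modify the receptors, 3, 3 and 2 rose and 0 fell in each line. The 4 genes of ligand endocytosis counted 0, 1 and 1 up and 1, 0 and 1 down. Of the 8 genes of receptor cleavage, which encode ADAM proteases and subunits of γ-secretase, 1, 1 and 5 rose and 1, 5 and 0 fell. The 9 genes of receptor turnover counted 2, 3 and 3 up and 2, 4 and 4 down, and the 5 genes of the nuclear complex 3, 2 and 2 up and 0, 1 and 1 down. Corepressors, 7 in all, counted 2, 4 and 3 up and 2, 2 and 0 down, and the 7 other targets measured 1, 2 and 1 up and 4, 0 and 2 down. Those 7, HES and HEY family genes and NRARP, were listed as targets, and whether each responds to Notch was not tested. With so few genes per role, these counts are descriptions only. Genes picked after their values were seen were LFNG, a Fringe enzyme that modifies NOTCH receptors, which rose by 1.87 in A549 and 1.83 in NCI-H358 and changed by 0.07 in HCC827 (adjusted p 0.695), and NRARP, a target that feeds back on the pathway, which rose by 1.86 in HCC827 and 0.96 in NCI-H358 and fell by 0.62 in A549. In NCI-H358, NRARP was the 1 gene listed among the other targets that rose, and HES4 (from 8.32 to 6.56) and HES6 (from 7.55 to 6.90) fell. HES4 and HES6 also fell in A549. RBPJ itself passed in NCI-H358 (0.54, adjusted p 1.62e-05) and not in A549 (-0.10) or HCC827 (0.18).

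**Figure D4:**
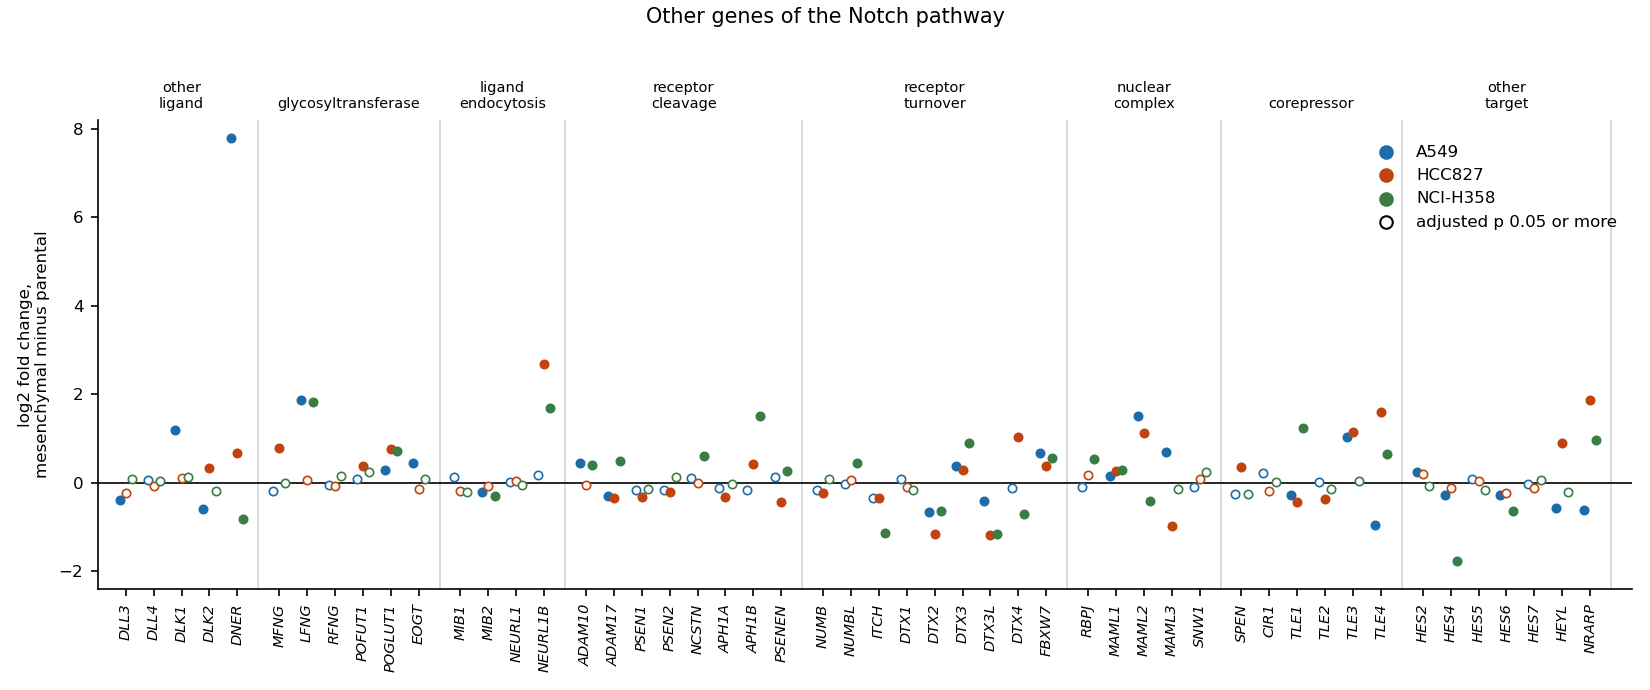
Log2 fold change, mesenchymal minus parental, of genes of the wider Notch pathway list, grouped by role, with 1 point per cell line. Filled points passed an adjusted p of 0.05 and open points did not, and the largest values are those of DNER in A549 (7.80) and NEURL1B in HCC827 (2.69).

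For the Notch genes past the study's thresholds, the genes with the most similar profile were found as those with the smallest root mean square difference over the 6 group means, each gene centred on its own mean. Nearest to JAG1 were EMILIN2, an extracellular matrix glycoprotein, at 0.31 and COL7A1, the chain of type VII collagen, at 0.46, where the root mean square of the JAG1 profile itself was 1.34. EMILIN2 went from 4.76 to 7.95 in HCC827, from 7.63 to 7.84 in A549 and from 7.39 to 8.17 in NCI-H358. Like JAG1, both genes had parental HCC827 as their lowest group. Nearest to HEY1 were CHSY3, a chondroitin sulfate synthase, at 0.51 and ZNF697, a zinc finger protein, at 0.56, beside 1.51 for the HEY1 profile. ZNF697 went from 6.83 to 9.43 in A549, from 7.73 to 9.32 in HCC827 and from 9.38 to 9.95 in NCI-H358. These are descriptions over 6 groups chosen from all genes of the table, and no test was made of them.

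The span between the 3 line means was narrower in mesenchymal than in parental cells for 7 of the 10 Notch genes, which is also true of 50% of all genes. For HEY1 it went from 3.81 to 1.59, for HES1 from 1.5 to 0.86 and for JAG2 from 0.83 to 0.29. For NOTCH3, DLL1 and HEY2 it was wider in mesenchymal cells, for NOTCH3 at 0.49 against 0.20 in parental cells.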

How the data were processed

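Total RNA of parental and mesenchymal A549, HCC827 and NCI-H358 cells was hybridized to Affymetrix U133 Plus 2.0 arrays, 3 per group and 18 in all. The table that the authors deposited holds 1 RMA-normalized log2 value for each of 19849 genes and each array, from a single probe set of the gene. How that probe set was chosen and the genome build are not given in the sources used here, so a transcript form missed by the chosen probe set is not seen. Every column could be matched to a sample by its title. Groups follow the labels, and arrays are numbered within a group only as names.

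The deposited log2 values were fitted with lmFit and eBayes of limma 3.58.1 (R 4.3.3), with 6 groups, no covariate and 12 residual degrees of freedom, with Benjamini-Hochberg adjustment over all genes. Changes were compared between lines as contrasts in the same fit. No array pair was identical, and arrays have no sequencing depth, so their number limits the precision. Named besides the 10 Notch genes were genes of the pathway list past the study's thresholds in at least 1 line or changed the same way in all 3, the 2 nearest profiles of each Notch gene past those thresholds, and CDH1, VIM and ZEB1. TIE1, KDR, TEK, PECAM1, VWF, CDH5, ERG, CD14, ZEB2, NOTCH2NL, LFNG, NRARP, HES4, HES6 and RBPJ were added after values were seen. A gene of the pathway list that this rule covers is counted in the totals but not reported here by name or plotted. The genes and lists were chosen with earlier results of these data known. Promoter windows came from RefSeq (GRCh38.p14) and were searched in Python 3.11.15, and figures were drawn with matplotlib 3.10.9. The steps were tested on simulated data. Alternatives were other fold thresholds, separate fits per line, centred arrays, a prior variance that follows intensity, a t-test within each line, removal of dim probe sets, and leaving out arrays. The study's methods name limma for the arrays and Student's t-test for data without another named method.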

Additional observations from a re-analysis of the deposited data

Results flagged for a closer look

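Changes upon EMT that differed between cell lines, tested as contrasts in the limma fit (adjusted p below 0.05 over all genes), were looked at again. Each value below is the change in the first line named minus that in the second, on the log2 scale. In all, 17 of the 30 such differences of the 10 Notch genes passed. The share of all genes that passed was 42.2% for HCC827 minus A549, 42.8% for NCI-H358 minus A549 and 37.9% for NCI-H358 minus HCC827.

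The ligand JAG1 stood out in HCC827. Its difference was 3.02 for HCC827 minus A549 and -3.13 for NCI-H358 minus HCC827. For JAG2 the difference was -0.77 for NCI-H358 minus A549 and -0.68 for NCI-H358 minus HCC827. For DLL1 it was 0.53 for NCI-H358 minus HCC827 (adjusted p 0.0436), and this call was lost in 10 of the 18 fits that left out 1 array and without the 3 parental arrays numbered apart (0.38, adjusted p 0.159). The DLL1 difference for HCC827 minus A549, -0.48, did not pass (adjusted p 0.0628) but did without parental array 1 (-0.60, adjusted p 0.0219) or mesenchymal array 3 (-0.55, adjusted p 0.0433) of A549, or without parental array 3 of HCC827 (-0.57, adjusted p 0.0339).

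The receptor NOTCH1 differed by 1.24 for NCI-H358 minus A549 and 1.37 for NCI-H358 minus HCC827. NOTCH2 differed by -0.91 for HCC827 minus A549 and -0.74 for NCI-H358 minus A549. NOTCH3 differed by 0.52 for HCC827 minus A549 and -0.70 for NCI-H358 minus HCC827. The NOTCH3 difference of 0.52 kept its call in only 11 of the 18 fits that left out 1 array.

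The target gene HES1 differed by 0.50 for HCC827 minus A549, -1.29 for NCI-H358 minus A549 and -1.79 for NCI-H358 minus HCC827. HEY1 differed by -0.47, -2.22 and -1.76 for the same pairs in the same order. The HES1 difference of 0.50 kept its call in 14 of the 18 fits that left out 1 array. In the wider pathway, DNER differed by -7.13, -8.61 and -1.47 (adjusted p 0.000177 for the last) and NEURL1B by 2.499, 1.5 and -1.0 (adjusted p 4.04e-08 for NCI-H358 minus A549).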

How the results depend on the processing

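No paired analysis was possible because the labels give no replicate numbers. Of 93 values recomputed, all 93 kept direction and call with an intensity trend, 90 with arrays centred on their medians and 85 without the 3 parental arrays numbered apart, an alternative chosen after seeing the data. The filter on dim probe sets left 75 values, all with the same call. It removed NOTCH4, DLL1 and HEY2, so the DLL1 calls were not checked by it. The separate limma fits and a t-test within each line kept 53 and 49 of 57. The separate fits lost DLL1 and MAML1 in A549 (adjusted p 0.0966 and 0.0829) and NOTCH2 and DNER in HCC827 (0.0843 and 0.0549). The t-test lost the same 4 (0.237, 0.0551, 0.214 and 0.198), NOTCH3 and DTX3 in HCC827 (0.0665 and 0.0774), and DLL1 and HES1 in NCI-H358 (0.0881 and 0.0899), so that NOTCH3, DTX3 and MAML1 no longer passed in all 3 lines. At a fold above 2 in place of 5, 3, 4 and 2 Notch genes passed the study's adjusted p in A549, HCC827 and NCI-H358. With that fold and an adjusted p below 0.05 the counts were again 3, 4 and 2, and 5, 6 and 4 pathway genes rose and 0, 2 and 3 fell. The share of all genes at a fold above 2 was not computed, so these counts cannot be set against it. With the t-test run within each line, 0 Notch genes passed the study's thresholds in A549 and 0 in HCC827, and 5 pathway genes fell in HCC827, and the cause was not tested. The share of all genes that passed under that t-test was not computed.

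Every reversed value belongs to a change or difference that did not pass. The difference of NOTCH4 between NCI-H358 and HCC827 was -0.013 with centred arrays. Without the 3 arrays numbered apart, NOTCH4 changed by 0.037 in A549, HEY2 by -0.036 in HCC827, and the differences were -0.026 for NOTCH4 (HCC827 minus A549) and -0.12 for DLL1 (NCI-H358 minus A549). With 1 array left out at a time, changes of NOTCH4 ranged from -0.17 to 0.037 in A549, from -0.055 to 0.097 in HCC827 and from -0.024 to 0.11 in NCI-H358, and those of HEY2 from -0.050 to 0.23 in A549 and from -0.053 to 0.11 in HCC827. Differences ranged from -0.010 to 0.20 for NOTCH4 between HCC827 and A549, from -0.057 to 0.095 for NOTCH4 between NCI-H358 and HCC827, from -0.069 to 0.20 for DLL1 between NCI-H358 and A549, and from -0.22 to 0.059 for HEY2 between HCC827 and A549. Notch genes changed in NCI-H358 ranged from 4 to 7, with 4 without its mesenchymal array 1, and those that differed between HCC827 and A549 from 3 to 5, with 3 without parental array 2 or mesenchymal array 3 of HCC827. No share of all genes was computed for these fits, so such counts cannot be set against one. Centring the arrays moved the share of changed genes that rose in A549 from 38.3% to 48.9%, and the Notch genes there stayed at 5 up and 3 down. NOTCH4, DLL1 and HEY2 lay under the olfactory receptor level in all groups, as did NOTCH2 in A549 and NCI-H358, NOTCH3 in mesenchymal cells, JAG1 in parental HCC827 and HEY1 in parental A549. In the wider pathway, the DNER means of parental A549 and parental HCC827 also lay under it. In all these groups signal over background limits what can be read.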
